A study of Rattus norvegicus with 4 samples.

Results

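Gene expression in the mammary gland of a Sprague-Dawley rat (SDR) on day 1 of involution was set against 3 lactation arrays at once, and each gene was described by how far its signal lay outside the whole range of the lactation arrays. The 4 Affymetrix arrays, which are all arrays of the series, hybridised total RNA of SDR involution, SDR lactation, heterozygous Hirosaki hairless rats (HHR, rats of a mutant strain without hair) in lactation and homozygous HHR in lactation, each on day 1. Every group had 1 array, so no value below has a replicate error, no difference was tested, and differences are described by their size. How many animals each array stands for, and how long lactation had lasted before the involution sample, are not given in the labels, so the end of milk removal and a later stage of lactation cannot be told apart. The involution array is of SDR only, and no HHR involution array was analysed here.

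In lactation the luminal epithelial cells of the alveoli secrete casein, lactose and fat globules, a state that prolactin maintains through the transcription factor Stat5. When milk is no longer removed the gland enters involution. In rodents the first phase can be reversed by renewed suckling, and it is marked by Stat3 activity, acute phase and lysosomal genes, and the shedding of dying epithelial cells into the alveoli, before proteases remodel the tissue and fat cells fill it again.

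The measure was the log2 gap between the involution signal and the nearest of the lactation signals. It is positive where involution lay above all 3 lactation arrays, negative where it lay below all 3, and 0 where it lay inside their range. Signals were MAS5 intensities, and those under the pooled 40th percentile of 91.5, called the floor, were raised to it, so any fold taken against the floor gives only a minimum and is written as "at least". Of 14217 genes on the arrays, 11395 lay above the floor in at least 1 array and are called measured. Between 10368 (heterozygous HHR) and 10472 genes (SDR involution) were above the floor in a single array.

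Involution lay above all 3 lactation arrays for 4147 genes (36.4%), below all 3 for 3128 (27.5%) and inside their range for 4120 (36.2%). At least a 2-fold gap was found for 442 genes above the range (3.88% of those measured) and for 478 genes below it (4.19%). The lower genes reached further from the range. At 4-fold the counts were 70 higher and 114 lower, and at 16-fold 4 higher and 9 lower. All 3 lactation arrays were at the floor for 46 of the 442 higher genes, and involution was at the floor for 64 of the 478 lower genes. The lactation arrays lay within 2-fold of each other for 353 of the higher and 340 of the lower genes, and the gap was larger than the whole lactation range for 410 and 424 of them. Each lactation array, set in the same way against the other 2, gave between 153 and 188 genes at least 2-fold higher and between 38 and 116 lower among 11122 genes. That comparison has 2 arrays on the other side where involution has 3, so the counts are not alike in design.

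**Figure D1:**
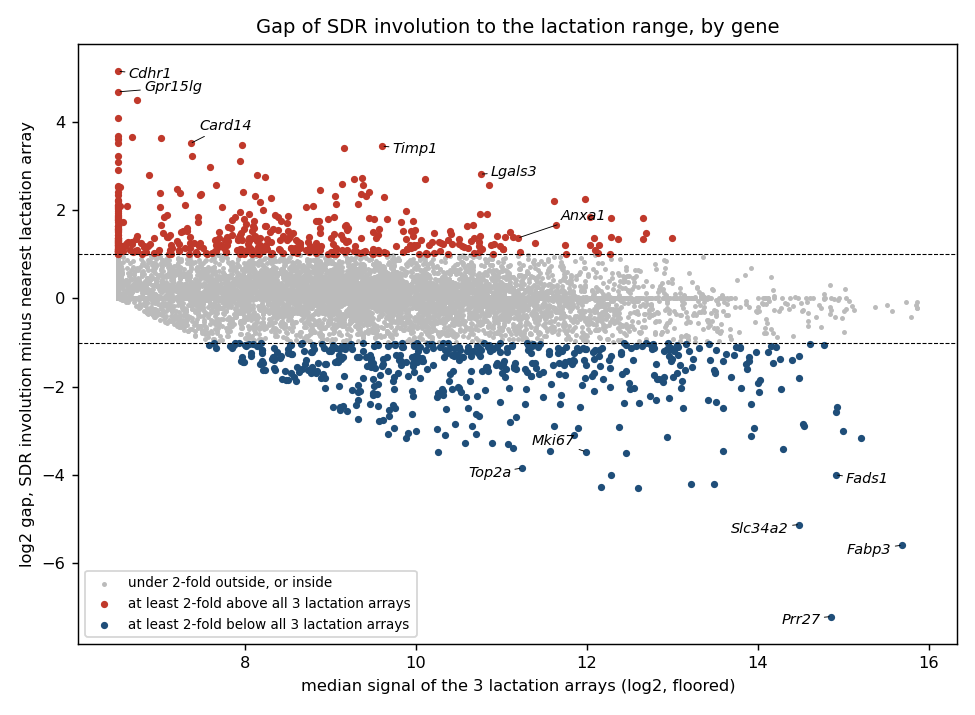
Log2 gap of SDR involution to the nearest lactation array (vertical axis) against the median log2 signal of the 3 lactation arrays (horizontal axis), with 1 point for each of 11395 measured genes. The 442 red points lie at least 2-fold above and the 478 blue points at least 2-fold below every lactation array (dashed lines), and the lower genes, led by Prr27, reach to genes of high lactation signal while many of the leading higher genes start at the floor.

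The scaling of the arrays bears on this split. The 9 spiked-in hybridisation control probe sets were all lower in involution, with a geometric mean signal of 5383 in SDR involution, against 7589 (SDR), 7495 (heterozygous HHR) and 6648 (homozygous HHR) in lactation, and a median log2 gap of -0.33. For 12 poly-A control probe sets, spiked in before labelling, the means were 1855 in SDR involution, against 1494 (SDR), 1944 (heterozygous HHR) and 1771 (homozygous HHR) in lactation, and the median gap was 0. Higher genes made up 48.0% of the calls as deposited, 35.3% after median centring, 38.5% after scaling to the poly-A controls and 81.6% after scaling to the hybridisation controls. That last scaling moved the median difference of all genes from the lactation median to 0.45 on the log2 scale, against 0.05 as deposited, and gave 1154 higher and 260 lower genes. Over all measured genes the share at least 2-fold higher was 10.04% after scaling to the hybridisation controls, 2.77% after median centring and 2.93% after scaling to the poly-A controls, and 6.27% without homozygous HHR, 5.14% without SDR lactation and 4.91% without heterozygous HHR. The share at least 2-fold lower was 2.26%, 5.07% and 4.68% under these scalings and 5.32%, 5.33% and 5.04% without these arrays, in the same order. The list counts given below for another scaling or a left-out array stand beside these shares. The ratio of 3′ to 5′ signal, which grows with RNA degradation, was 1.60 for Gapdh in SDR involution, against 1.17 (SDR), 1.93 (heterozygous HHR) and 2.30 (homozygous HHR) in lactation. For actin it was 4.80 in SDR involution, against 4.60 (SDR), 7.86 (heterozygous HHR) and 5.91 (homozygous HHR) in lactation. Both ratios of involution thus lay inside the lactation range.

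The tissue was checked by the summed signal of marker lists. Luminal epithelial markers summed to 129779 in SDR involution, against 86267 (SDR), 79732 (heterozygous HHR) and 96856 (homozygous HHR) in lactation, and none of the 15 was at the floor in involution. Within that list the members split. The keratins Krt8 and Krt19 and the adhesion gene Cdh1 (2.02-fold, or 3.30-fold without homozygous HHR) were at least 2-fold above the lactation range, while Muc1, Elf5 and Prlr were at least 2-fold below it. Adipocyte markers summed to 20077 in SDR involution, against 86182 (SDR), 73513 (heterozygous HHR) and 67701 (homozygous HHR) in lactation, and without Cidea, which the milk fat list also holds, to 16919 in SDR involution, against 53428 (SDR), 40020.1 (heterozygous HHR) and 42122 (homozygous HHR). Macrophage markers summed to 44949 in SDR involution, against 32253 (SDR), 19300 (heterozygous HHR) and 36488 (homozygous HHR) in lactation. Without Cd14, which the Stat3 and acute phase lists also hold, the sum was 24873 in SDR involution, against 26268 (SDR), 14767 (heterozygous HHR) and 19994 (homozygous HHR), so that involution lay inside the lactation range. T and NK cell markers summed to 3436 in SDR involution, against 5723 (SDR), 3542 (heterozygous HHR) and 3739 (homozygous HHR) in lactation, and 7 of the 17 were at the floor in SDR involution, against 1 (SDR), 7 (heterozygous HHR) and 6 (homozygous HHR). In whole tissue, fewer cells of a type and less RNA per cell cannot be told apart.

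The largest gap of all was below the lactation range. Prr27, which encodes a proline-rich protein, had a signal of 187 in SDR involution, against 28013 (SDR), 43187 (heterozygous HHR) and 29696 (homozygous HHR) in lactation, and was 149-fold lower than the nearest of them. Fabp3, the heart-type fatty acid binding protein that is abundant in the lactating gland, had 941 in SDR involution, against 57721 (SDR), 52813 (heterozygous HHR) and 45740.5 (homozygous HHR) in lactation and was 48.6-fold lower. Slc34a2, a sodium-phosphate cotransporter of the apical membrane, had 618 in SDR involution, against 30067 (SDR), 21678 (heterozygous HHR) and 22956 (homozygous HHR) in lactation and was 35.1-fold lower. For these 3 genes the lactation arrays stood close together, and only involution was apart. Among the further leading lower genes were Car2, a carbonic anhydrase (19.8-fold), Aass, which starts lysine breakdown (19.4-fold), G0s2, an inhibitor of the fat cell lipase (18.5-fold), the matricellular protein Ccn3 (18.5-fold), the water and glycerol channel Aqp3 (16.01-fold), the peptide hormone gene Apln (11.4-fold), the connexin Gjb1 (11.2-fold), the coenzyme A synthesis enzyme Pank3 (11.1-fold) and the aldolase Aldoc (10.6-fold). Leaving out the homozygous HHR array, raised the fold of G0s2 to 28.3, of Aqp3 to 24.6 and of Apln to 24.6.

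Many of the leading higher genes were hardly detected in lactation. Cdhr1, a cadherin-related protein known from photoreceptors, had 4095 in SDR involution, against the floor (SDR), the floor (heterozygous HHR) and 114 (homozygous HHR) in lactation, and was 35.8-fold higher. Sdcbp2, a PDZ scaffold protein, had 4293 in SDR involution, against the floor (SDR), 106 (heterozygous HHR) and 187 (homozygous HHR) in lactation and was 22.9-fold higher (40.5-fold without homozygous HHR). Timp1, the secreted inhibitor of matrix metalloproteinases, had 8593 in SDR involution, against 781 (SDR), 552 (heterozygous HHR) and 779 (homozygous HHR) in lactation and was 11.01-fold higher, with the lactation arrays within 0.50 of each other on the log2 scale. Of genes at the floor in all 3 lactation arrays, the brightest in involution were Gpr15lg, a secreted ligand of the receptor GPR15 (at least 25.9-fold), Reg3b, an antibacterial lectin (at least 17.0-fold), Aldh1a3, which makes retinoic acid (at least 11.6-fold), the stress gene Gadd45b (at least 7.51-fold) and the keratin Krt6c (at least 5.79-fold). Krt6c may share probe sequence with its paralogs. Card14, a scaffold of NF-kappaB signalling in epithelial cells, had 12657 in SDR involution, against the floor (SDR), 164 (heterozygous HHR) and 1101 (homozygous HHR) in lactation and was 11.5-fold higher, or 77.0-fold without the homozygous HHR array. Sbsn, suprabasin of the cornifying epidermis, had 6318 in SDR involution, against 224 (SDR), 249.6 (heterozygous HHR) and 564 (homozygous HHR) in lactation and was 11.2-fold higher (25.3-fold without that array), and Vtcn1, which inhibits T cells, was 12.3-fold higher (at least 31.0-fold without it). Tspan1, a tetraspanin, Urah, an enzyme of uric acid breakdown, Wnt5b, a secreted Wnt ligand, and Tnnt2, cardiac troponin T, were between 9.36-fold (Wnt5b) and 12.9-fold (Tnnt2) higher.

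**Figure D2:**
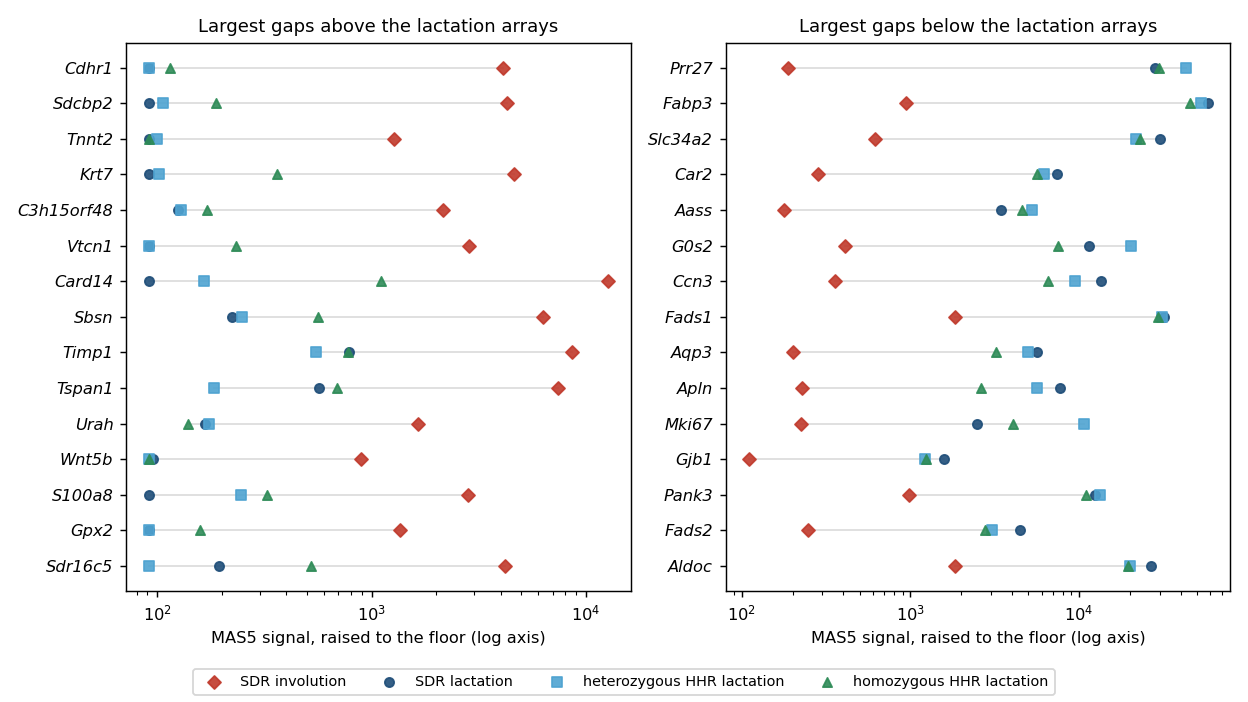
Signal of the 15 genes with the largest gaps above (left) and below (right) the lactation range, among genes above the floor in involution and in the nearest lactation array, on a log axis with values under 91.5 raised to it. Red diamonds are SDR involution, dark blue circles SDR lactation, light blue squares heterozygous HHR lactation and green triangles homozygous HHR lactation, and on the left the green triangle is the nearest to involution in 11 of the 15 genes.

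Genes of cell division formed the list with the largest share of lower members. Of 40 measured members 29 were at least 2-fold below the lactation range and 0 lay above it, 36 lay below it by any amount, and the median log2 gap was -1.93, beside 0 over all measured genes. Mki67, the proliferation marker, had 224 in SDR involution, against 2496 (SDR), 10701 (heterozygous HHR) and 4059 (homozygous HHR) in lactation and was 11.2-fold lower. Top2a, the topoisomerase that untangles chromosomes before division, was at the floor in SDR involution, against 1322 (SDR), 6117 (heterozygous HHR) and 2412 (homozygous HHR) in lactation and was at least 14.4-fold lower, and its further probe set was at least 2-fold lower too. Ccnb2, a mitotic cyclin, had 145 in SDR involution, against 1233 (SDR), 3470.5 (heterozygous HHR) and 1297 (homozygous HHR) in lactation and was 8.52-fold lower. All 3 were lowest in involution and highest in heterozygous HHR, so the level reached in lactation differed by array while the order of involution did not. Without the SDR lactation array the folds were 18.2 for Mki67 and at least 26.4 for Top2a, and for Nusap1, Ect2 and Spc24, named next, 17.9, at least 16.7 and at least 13.3. Nusap1, a spindle protein (10.5-fold), Ube2c, which marks mitotic proteins for degradation (7.20-fold), and the spindle motor Kif11 (at least 6.72-fold) were lower as well, and outside the list Ect2, which drives cytokinesis (at least 9.72-fold), and the kinetochore gene Spc24 (at least 7.80-fold) were at the floor in involution. Other members were short of 2-fold. Pcna, the replication clamp, had 3573 in SDR involution, against 5515 (SDR), 10836 (heterozygous HHR) and 5908 (homozygous HHR) in lactation, a log2 gap of -0.63, and Mcm7, a subunit of the replicative helicase, had 1347 in SDR involution, against 1385 (SDR), 2733 (heterozygous HHR) and 1508 (homozygous HHR) in lactation. The 6 helicase genes Mcm2 to Mcm7, set apart after their values were seen, had log2 gaps between -0.50 and 0.

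Promoters of cell division genes can hold known elements. The 3 genes described first are shown as those with the largest gaps below the range in the list whose promoters hold both elements described next. Both elements were thus present in these 3 by choice. Many late cell cycle genes carry CCAAT boxes, bound by NF-Y, and the cell cycle homology region (CHR), bound by the DREAM and MMB complexes, in which lies the sequence TTTGAA. The sequences are the 250 bases before each gene's start from RefSeq, build GRCr8, 5′ to 3′ on the gene's strand, with every CCAAT or ATTGG and every TTTGAA or TTCAAA in capitals. Top2a lies at chr10:84473094-84473343, Mki67 at chr1:199952594-199952843 and Ccnb2 at chr8:79981659-79981908, all 3 on the minus strand.
Top2a: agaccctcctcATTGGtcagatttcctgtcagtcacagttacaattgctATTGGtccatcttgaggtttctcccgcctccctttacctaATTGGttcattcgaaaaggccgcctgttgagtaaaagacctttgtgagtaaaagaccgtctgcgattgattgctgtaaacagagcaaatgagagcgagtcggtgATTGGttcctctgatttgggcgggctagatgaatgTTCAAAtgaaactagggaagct
Mki67: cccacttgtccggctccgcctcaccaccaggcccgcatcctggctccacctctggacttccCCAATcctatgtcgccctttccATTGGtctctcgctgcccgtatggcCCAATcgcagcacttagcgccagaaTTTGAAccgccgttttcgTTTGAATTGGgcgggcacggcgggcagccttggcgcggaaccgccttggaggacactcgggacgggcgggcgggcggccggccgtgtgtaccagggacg
Ccnb2: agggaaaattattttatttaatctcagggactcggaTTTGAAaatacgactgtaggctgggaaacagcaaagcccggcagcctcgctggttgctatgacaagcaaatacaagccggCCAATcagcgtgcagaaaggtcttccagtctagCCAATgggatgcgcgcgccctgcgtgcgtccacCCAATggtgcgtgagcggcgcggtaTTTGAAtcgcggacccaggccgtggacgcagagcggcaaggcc
In Top2a the CHR letters start 22 bases before the gene start and the nearest CCAAT box 57 bases before it. In Mki67 one CHR match starts 99 bases before the gene start and overlaps the CCAAT box that starts at 94. In Ccnb2 the matches nearest the start lie at 43 (CHR) and 68 bases (CCAAT). Searched on both strands, CCAAT was found in 25 of the 33 cell cycle genes with a promoter in the table and in 34.3% of all 27457 promoters, TTTGAA in 11 of 33 and in 16.03% of all, and both in 10 of 33 and in 5.76% of all. In the milk fat list CCAAT was found in 16 of 28 promoters and TTTGAA in 1, and in the cholesterol synthesis list in 12 and 2 of 15. The sterol response letters TCACNCCAC were found in 0.976% of all promoters and in 0 of the 28 milk fat and 0 of the 15 cholesterol synthesis promoters, and the Stat letters TTCNNNGAA in 7.52% of all and in 2 of 27 in the Stat3 list. A match of letters is a description of these windows and no evidence of binding.

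Genes of milk fat were lower in involution. Of 37 measured members of the list of milk fat globule and fatty acid synthesis genes, 19 were at least 2-fold below the lactation range and 0 that far above it, and the median log2 gap was -1.06. The enzymes and uptake proteins led. Fads1 and Fads2, the desaturases of polyunsaturated fatty acids, were 16.1-fold and 11.1-fold lower. Fads1 had 1833 in SDR involution, against 32060.1 (SDR), 30898 (heterozygous HHR) and 29471 (homozygous HHR) in lactation, so the lactation arrays lay within 0.12 of each other on the log2 scale. Lpl, which frees fatty acids from lipoproteins in the capillaries, had 3696 in SDR involution, against 42047 (SDR), 37854 (heterozygous HHR) and 33165 (homozygous HHR) in lactation and was 8.97-fold lower. Acaca, the rate-limiting carboxylase of fatty acid synthesis, had 2191 in SDR involution, against 23834 (SDR), 25401 (heterozygous HHR) and 16280.5 (homozygous HHR) in lactation and was 7.43-fold lower, and Cidea, a lipid droplet protein of fat secretion, had 3158 in SDR involution, against 32754 (SDR), 33493 (heterozygous HHR) and 25579 (homozygous HHR) in lactation and was 8.10-fold lower. Other members were short of 2-fold. Xdh, xanthine oxidoreductase, had 27905 in SDR involution, against 35936 (SDR), 41853 (heterozygous HHR) and 33702 (homozygous HHR) in lactation, and Plin2, which coats lipid droplets, had 19720.4 in SDR involution, against 30596 (SDR), 30701 (heterozygous HHR) and 26596 (homozygous HHR) in lactation. Fabp5, another fatty acid binding protein, was above the lactation range in involution, with 39723 in SDR involution, against 31953 (SDR), 29515 (heterozygous HHR) and 27564 (homozygous HHR) in lactation. The Xdh gap became 0 after scaling to the hybridisation controls. After scaling to the poly-A controls the Fabp5 gap shrank to just above 0. The list thus held a gene 48.6-fold lower and one 1.24-fold higher within the same protein family. Adipocyte markers were lower too, with 15 of 17 below the lactation range and 3 at least 2-fold, 1 of them Cidea, which both lists hold, or 8 without the SDR lactation array, and their part in the milk fat result was not tested. Cholesterol synthesis genes had 5 of 19 members at least 2-fold lower and 0 higher with a median gap of -0.45. The desaturase Sc5d had 353 in SDR involution, against 1446 (SDR), 1879 (heterozygous HHR) and 1446 (homozygous HHR) in lactation and was 4.10-fold lower, the thiolase Acat2 was 2.73-fold lower and Fdps, which makes farnesyl pyrophosphate, 2.08-fold lower. After scaling to the hybridisation controls 2 of the 19 remained at least 2-fold lower and the median gap was 0.

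The caseins and the main whey proteins had some of the highest signals in all 4 arrays. Csn3, kappa-casein, had 46227 in SDR involution, against 60152 (SDR), 59591 (heterozygous HHR) and 53588 (homozygous HHR) in lactation, Csn1s1, an alpha-casein, had 46394 in SDR involution, against 59405 (SDR), 60311 (heterozygous HHR) and 51747 (homozygous HHR) in lactation, and Glycam1, a milk mucin, had 45691 in SDR involution, against 61700.5 (SDR), 59679 (heterozygous HHR) and 48576 (homozygous HHR) in lactation. Lalba, the alpha-lactalbumin that turns galactosyltransferase into lactose synthase, had 36580.3 in SDR involution, against 48609.5 (SDR), 50638 (heterozygous HHR) and 44819.9 (homozygous HHR) in lactation. All 4 were lowest in involution, with log2 gaps between -0.29 (Lalba) and -0.09 (Glycam1), sizes no larger than the -0.33 of the hybridisation controls. The 20 probe sets with the highest mean signal over all 4 arrays, of which 3 are lactation arrays, were taken as 1 common set. Their median was 41328 in SDR involution, against 49757 (SDR), 51725 (heterozygous HHR) and 45767 (homozygous HHR) in lactation. The part of the upper end of the signal range in the milk protein values was not tested. After scaling to the hybridisation controls all 4 turned to gaps above 0, between 0.01 and 0.10. Of the 10 measured milk protein genes 8 lay below the lactation range, and after that scaling 2 did. At least 2-fold lower was Muc1, a membrane mucin, with 1261 in SDR involution, against 8210.0 (SDR), 6249 (heterozygous HHR) and 7185 (homozygous HHR) in lactation (4.96-fold), 1 gene where 2 passed without the SDR lactation array, and at least 2-fold higher was Wfdc18, a whey acidic protein family member, with 488 in SDR involution, against the floor in all 3 lactation arrays (at least 5.34-fold).

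Of 27 measured genes of lactose synthesis and transport 9 were at least 2-fold below the lactation range and 0 that far above it, with a median log2 gap of -0.47. Besides Slc34a2 and Aqp3 these included Atp2c2, a Golgi calcium pump, with 624 in SDR involution, against 3771 (SDR), 3273 (heterozygous HHR) and 3283 (homozygous HHR) in lactation (5.25-fold), and B4galt1, the galactosyltransferase of lactose synthase, with 1376 in SDR involution, against 11716 (SDR), 12623 (heterozygous HHR) and 7057 (homozygous HHR) in lactation (5.13-fold, or 8.52-fold without homozygous HHR). For B4galt1 only 1 of its 2 further probe sets had involution below the lactation median, and both had a gap of 0. Atp2b2, a calcium pump of the apical membrane, was at the floor in SDR involution, against 1794 (SDR), 2706 (heterozygous HHR) and 386 (homozygous HHR) in lactation, and was at least 4.22-fold lower, or at least 19.6-fold without the homozygous HHR array. Slc2a1, the glucose transporter of the gland, had 1239.9 in SDR involution, against 6331 (SDR), 3554 (heterozygous HHR) and 3292 (homozygous HHR) in lactation and was 2.65-fold lower. The zinc transporter Slc30a4 was short of 2-fold, with 4793 in SDR involution, against 7578 (SDR), 11533 (heterozygous HHR) and 13012 (homozygous HHR) in lactation. The folate receptor Folr1 showed how the rule works: involution was lower than SDR lactation but inside the lactation range, with 4738 in SDR involution, against 12549 (SDR), 3841 (heterozygous HHR) and 4323 (homozygous HHR) in lactation. In amino acid transport, 2 of 20 members were lower and 0 higher (2 higher without the homozygous HHR array), led by the glutamine transporter Slc38a3 (4.63-fold). The amino acid carrier subunit Slc3a2 lay above the range, short of 2-fold, with 10504 in SDR involution, against 4992 (SDR), 4332 (heterozygous HHR) and 5641 (homozygous HHR) in lactation.

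Of the prolactin pathway 3 of 13 measured members were at least 2-fold lower and 0 higher, with a median log2 gap of -0.68. Prlr, the prolactin receptor, had 4270.5 in SDR involution, against 12407 (SDR), 11404 (heterozygous HHR) and 12461 (homozygous HHR) in lactation and was 2.67-fold lower. Elf5, the transcription factor of alveolar cells downstream of prolactin, had 3420.2 in SDR involution, against 13668 (SDR), 11597 (heterozygous HHR) and 10893 (homozygous HHR) in lactation and was 3.18-fold lower. Stat5a had 1419.7 in SDR involution, against 3428 (SDR), 2644 (heterozygous HHR) and 2742 (homozygous HHR) in lactation, short of 2-fold at 1.86-fold lower. After scaling to the hybridisation controls 1 member remained at least 2-fold lower, and after median centring 5 did. Of 21 glucocorticoid and hormone receptor genes 3 were lower and 2 higher. Nr3c1, the glucocorticoid receptor, had 1239.5 in SDR involution, against 4183 (SDR), 4266 (heterozygous HHR) and 4904 (homozygous HHR) in lactation and was 3.37-fold lower, and Sgk1, a kinase that glucocorticoids induce, was 3.02-fold lower with 726 in SDR involution, against 2190.3 (SDR), 2312 (heterozygous HHR) and 3082 (homozygous HHR) in lactation. The oxysterol receptor Nr1h3 was 2.54-fold higher. In the list of metallothionein, iron and zinc genes 2 of 14 were higher and 1 lower. Mt2A, a metallothionein, had 8109 in SDR involution, against 358 (SDR), 664 (heterozygous HHR) and 1368 (homozygous HHR) in lactation and was 5.93-fold higher (12.2-fold without the homozygous HHR array), while Tfrc, the transferrin receptor of iron uptake, had 3279 in SDR involution, against 23362 (SDR), 16541 (heterozygous HHR) and 14238 (homozygous HHR) in lactation and was 4.34-fold lower.

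**Figure D3:**
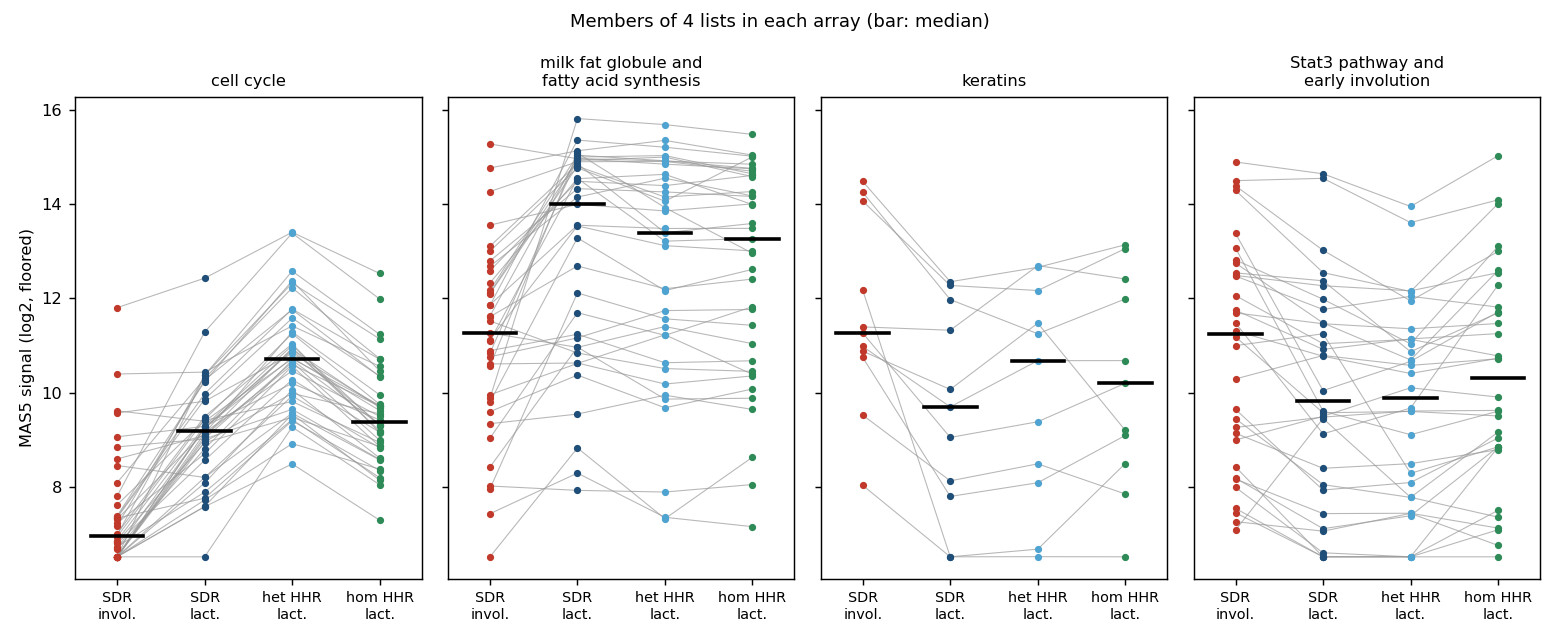
Log2 signal (floored at 91.5) of every measured member of 4 gene lists in each array, with SDR involution in red at the left and the 3 lactation arrays after it, a grey line per gene and a black bar at the median. Cell cycle and milk fat medians are lowest in involution, the keratin median is highest there, and in the Stat3 list the median of homozygous HHR lies nearest to that of involution.

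Keratins had the largest share of higher members. Of 11 measured members 8 were at least 2-fold above the lactation range and 0 below it, with a median log2 gap of 1.07. Krt7, a simple epithelial keratin, had 4619.9 in SDR involution, against the floor (SDR), 102 (heterozygous HHR) and 361 (homozygous HHR) in lactation and was 12.8-fold higher (45.1-fold without the homozygous HHR array). Krt19 had 19472 in SDR involution, against 4025 (SDR), 2434 (heterozygous HHR) and 4064 (homozygous HHR) in lactation and was 4.79-fold higher. Krt8, the main type II keratin of luminal cells, had 22879.7 in SDR involution, against 5233 (SDR), 6469.6 (heterozygous HHR) and 9013 (homozygous HHR) in lactation and was 2.54-fold higher. All 3 are keratins of simple epithelium, and involution stood above every lactation array in each. Of the basal keratins, Krt14 was 2.09-fold higher (3.68-fold without homozygous HHR) with 2459 in SDR involution, against 529.7 (SDR), 667 (heterozygous HHR) and 1175 (homozygous HHR) in lactation, but Krt5, its partner, lay inside the lactation range with 2693 in SDR involution, against 2564 (SDR), 6633 (heterozygous HHR) and 5448 (homozygous HHR) in lactation. Krt1, Krt10 and Loricrin, markers of skin epidermis, were between 2.05-fold (Krt10) and 2.85-fold (Krt1) higher, and Krtdap, another, at least 2.06-fold. Their signals in involution were low, from 189 (Krtdap) to 736 (Krt10). Loricrin was at least 3.84-fold higher without the heterozygous HHR array. The summed skin epidermis markers were 2020.3 in SDR involution, against 996 (SDR), 1133 (heterozygous HHR) and 879.6 (homozygous HHR) in lactation, and the part of skin in the keratin result was not tested. Myoepithelial markers summed to 51339 in SDR involution, inside the lactation range. After median centring 5 of the 11 keratins were at least 2-fold higher, and 5 also with the floor added as a pseudocount, a setting under which 0 of the skin markers passed 2-fold. Without the SDR lactation array 1 keratin was at least 2-fold lower.

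Annexins and S100 proteins, calcium-binding proteins of membranes and of inflammation, had 6 of 20 members at least 2-fold above the lactation range, 0 below it by that much and a median log2 gap of 0.71. Without the homozygous HHR array the count was 10. S100a6 had 13292 in SDR involution, against 1431 (SDR), 1847 (heterozygous HHR) and 2232 (homozygous HHR) in lactation and was 5.95-fold higher. S100a8, a subunit of the antimicrobial calprotectin, had 2809 in SDR involution, against the floor (SDR), 246 (heterozygous HHR) and 325 (homozygous HHR) in lactation and was 8.65-fold higher, and its partner S100a9 was 5.02-fold higher. Neutrophils carry both, and of the 6 neutrophil markers measured Mmp8, Ncf1 and Np4 were at the floor in involution, while their sum, largely S100a8 and S100a9, was 4422 in SDR involution, against 491 (SDR), 684 (heterozygous HHR) and 855 (homozygous HHR) in lactation. Anxa2 had 12451 in SDR involution, against 3893 (SDR), 3187 (heterozygous HHR) and 2973 (homozygous HHR) in lactation and was 3.20-fold higher. Anxa1, an annexin that glucocorticoids induce, had 33255 in SDR involution, against 2335 (SDR), 2345 (heterozygous HHR) and 12820.5 (homozygous HHR) in lactation. Its gap to homozygous HHR was 2.59-fold, and to the other lactation arrays it was 14.2-fold.

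The count of the Stat3 list, which holds genes that Stat3 induces and other genes known from early involution, depended on a single lactation array. Of its 32 measured members 4 were at least 2-fold higher than all 3 lactation arrays and 0 lower, 19 lay above the range by any amount, and the median log2 gap was 0.25. Without the homozygous HHR array 12 were at least 2-fold higher, where 6.27% of all genes were, and after scaling to the hybridisation controls 8 were, where 10.04% of all genes were. Against SDR lactation alone 14 were, where the shares of all genes past 2-fold were 10.3% (higher) and 8.94% (lower). Stat3 itself had 10652 in SDR involution, against 1055 (SDR), 1621 (heterozygous HHR) and 3359 (homozygous HHR) in lactation, and was 3.17-fold higher (6.57-fold without homozygous HHR). Besides Timp1, the cathepsin Ctsl had 21459 in SDR involution, against 8308 (SDR), 3949.8 (heterozygous HHR) and 8175 (homozygous HHR) in lactation and was 2.58-fold higher, and Irf1, an interferon regulatory factor, had 2325 in SDR involution, against 762 (SDR), 776 (heterozygous HHR) and 727 (homozygous HHR) in lactation and was 2.99-fold higher. These 4 genes set involution at least 2-fold apart from all lactation arrays. No other member reached 2-fold. Of the 5 given next, Cd14 and Igfbp5 lay above the lactation range and the others inside it. Cebpd, a transcription factor induced by Stat3, had 2854 in SDR involution, against 559 (SDR), 816 (heterozygous HHR) and 4992 (homozygous HHR) in lactation. Cd14, a receptor for bacterial lipopolysaccharide, had 20076 in SDR involution, against 5985 (SDR), 4533 (heterozygous HHR) and 16494 (homozygous HHR) in lactation. Lcn2, an iron-sequestering lipocalin, had 30462 in SDR involution, against 25616 (SDR), 15836 (heterozygous HHR) and 33408 (homozygous HHR) in lactation. Tgfb3, a growth factor known from early involution, had 7209 in SDR involution, against 4047 (SDR), 2099 (heterozygous HHR) and 8809 (homozygous HHR) in lactation, and Igfbp5, which binds insulin-like growth factors, had 6887 in SDR involution, against 2855 (SDR), 1656 (heterozygous HHR) and 6181 (homozygous HHR) in lactation. In the values given for these 5, homozygous HHR was above involution or within 1.22-fold of it. The 4 further Igfbp5 probe sets had log2 gaps between 0 and 0.81. The set at 0.81 had 4655 in SDR involution, against 811 (SDR), 659 (heterozygous HHR) and 2658 (homozygous HHR) in lactation.

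Acute phase genes were higher where they passed 2-fold. Of 23 acute phase and inflammation genes 6 lay at least 2-fold above all lactation arrays, 0 that far below them, and the median log2 gap was 0.28. Against SDR lactation alone 10 were higher, where 10.3% of all genes were. Lbp, which presents lipopolysaccharide to Cd14, had 18997 in SDR involution, against 4982 (SDR), 2273 (heterozygous HHR) and 5369.6 (homozygous HHR) in lactation and was 3.54-fold higher. C3, the central complement component, had 23251 in SDR involution, against 6605 (SDR), 5818 (heterozygous HHR) and 8244 (homozygous HHR) in lactation and was 2.82-fold higher. Il1rn, the interleukin 1 receptor antagonist, had 353 in SDR involution, against the floor in all 3 lactation arrays and was at least 3.86-fold higher, and the monocyte chemokine Ccl2 was 2.78-fold higher. Saa3, an acute phase apolipoprotein, had 29592 in SDR involution, against 14839 (SDR), 3535 (heterozygous HHR) and 20582 (homozygous HHR) in lactation, short of 2-fold. Cp, ceruloplasmin, was 2.33-fold higher, and 1 of its 2 further probe sets shared that direction. Of the 29 immediate early genes 0 passed 2-fold in either direction, where 3.88% of all genes were higher and 4.19% lower. Against SDR lactation alone 7 were higher and 1 lower, where the shares of all genes were 10.3% and 8.94%. Without the homozygous HHR array 6 were higher and 1 lower, where these shares were 6.27% and 5.32%. Ccn2, connective tissue growth factor, had 2262 in SDR involution, against 428 (SDR), 732 (heterozygous HHR) and 5983 (homozygous HHR) in lactation, and Ier3 had 6919 in SDR involution, against 2858 (SDR), 2013 (heterozygous HHR) and 5015 (homozygous HHR) in lactation.

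Cell death and stress genes were higher where they passed 2-fold. In the apoptosis list 6 of 34 members passed 2-fold, all of them higher, and the median log2 gap was 0.06. Bik, a death-promoting Bcl2 family protein, had 1772 in SDR involution, against 114 (SDR), 178 (heterozygous HHR) and 347 (homozygous HHR) in lactation and was 5.11-fold higher (9.97-fold without homozygous HHR). Bmf, of the same family, was 3.05-fold higher and Bcl2l11, which encodes Bim, 2.27-fold higher. The caspases Casp1 and Casp12 were 2.73-fold and 2.90-fold higher, and Birc3, an inhibitor of apoptosis, had 1107 in SDR involution, against 282 (SDR), 214 (heterozygous HHR) and 245 (homozygous HHR) in lactation and was 3.92-fold higher. Genes that promote and that restrain cell death were thus both among them. In the p53 and Gadd45 list 4 of 18 were higher and 0 lower. After scaling to the hybridisation controls these counts were 10 and 7. Gadd45a, a growth arrest gene, had 4369.8 in SDR involution, against 822 (SDR), 412 (heterozygous HHR) and 698 (homozygous HHR) in lactation and was 5.32-fold higher, and Sesn2 was 2.33-fold higher. Of 34 lysosomal genes 5 were higher and 2 lower (4 lower without the heterozygous HHR array), with a median gap of 0. Lgmn, the lysosomal legumain, had 3996 in SDR involution, against 996 (SDR), 766 (heterozygous HHR) and 1172 (homozygous HHR) in lactation and was 3.41-fold higher, and the membrane protein Scarb2 was 2.82-fold higher. Gusb, beta-glucuronidase, had 1405 in SDR involution, against 4528 (SDR), 4006 (heterozygous HHR) and 3704 (homozygous HHR) in lactation and was 2.64-fold lower, and Ctsh was 2.16-fold lower. Ctsb, a cathepsin, lay inside the lactation range with 23153 in SDR involution, against 23961 (SDR), 12495 (heterozygous HHR) and 17447 (homozygous HHR) in lactation. None of 19 autophagy genes passed 2-fold, and 1 did without the SDR or the homozygous HHR array.

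Unfolded protein and amino acid stress genes had members past 2-fold on both sides. Of 30 measured members 3 were at least 2-fold lower (5 without the heterozygous HHR array), where 4.19% of all genes were. At least 2-fold higher was 1 member, where 3.88% of all genes were. The median log2 gap was -0.25 and became 0 after scaling to the hybridisation controls. Ssr1, a subunit of the translocon-associated complex through which secreted proteins enter the endoplasmic reticulum, had 1188 in SDR involution, against 5834 (SDR), 6715 (heterozygous HHR) and 4957 (homozygous HHR) in lactation and was 4.17-fold lower. Sec61b and Sec61a1, subunits of the translocon itself, were 3.04-fold and 2.86-fold lower. The chaperone Hspa5, the usual marker of the unfolded protein response, lay inside the lactation range with 16967 in SDR involution, against 21401 (SDR), 21254 (heterozygous HHR) and 16255 (homozygous HHR) in lactation. Trib3, a pseudokinase of the amino acid stress response, was the higher member, with 889 in SDR involution, against 342 (SDR), 402 (heterozygous HHR) and 384 (homozygous HHR) in lactation (2.21-fold), but it was short of 2-fold with the floor as a pseudocount, with its probe sets averaged and with its brightest unshared probe set. Of 14 tight junction genes 2 were lower and 1 higher (2 higher without the SDR lactation array). Cldn8 had 2966 in SDR involution, against 9584 (SDR), 11607 (heterozygous HHR) and 12742 (homozygous HHR) in lactation and was 3.23-fold lower, and the junction adaptor Cgn was 2.75-fold lower. Cldn4, another claudin, had 6439 in SDR involution, against 1644 (SDR), 866 (heterozygous HHR) and 2478 (homozygous HHR) in lactation and was 2.60-fold higher, or 3.92-fold without homozygous HHR. Cldn3 and Cldn7, also in the list, were short of 2-fold.

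Secreted signals of the TGF-beta, Wnt and IGF families had 4 of 36 members higher and 1 lower (2 lower without the heterozygous HHR array), with a median gap of 0. Besides Wnt5b, Inhbb, which encodes an activin subunit, had 1122 in SDR involution, against 253 (SDR), the floor (heterozygous HHR) and 319 (homozygous HHR) in lactation and was 3.52-fold higher, and Ltbp1, which binds latent TGF-beta in the matrix, was 2.97-fold higher. The secreted Wnt inhibitors of the list differed in direction. Sfrp4 was 2.55-fold higher with 236 in SDR involution, against 92 (SDR), the floor (heterozygous HHR) and the floor (homozygous HHR) in lactation, near the floor, and Sfrp2 was at the floor in SDR involution, against 429 (SDR), 184 (heterozygous HHR) and 244 (homozygous HHR) in lactation and was at least 2.02-fold lower.

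Matrix proteases and their inhibitors had 3 of 22 members higher and 1 lower, and 6 higher without the homozygous HHR array. Timp1 led, with the macrophage elastase Mmp12 at 2.10-fold higher and the aggrecanase Adamts4 at 2.18-fold higher, while Adamts5 was 2.56-fold lower. Mmp14, the membrane-bound collagenase, had 5944 in SDR involution, against 2356 (SDR), 1926 (heterozygous HHR) and 3386 (homozygous HHR) in lactation, short of 2-fold. After median centring 1 protease list member was higher, and after scaling to the hybridisation controls 8 were. Fibroblast and matrix markers had 2 of 22 higher and 1 lower, and 0 higher after median centring. Fn1, fibronectin, had 3896 in SDR involution, against 1945 (SDR), 857 (heterozygous HHR) and 1047 (homozygous HHR) in lactation, just past 2-fold, and 3.72-fold without the SDR lactation array. Macrophage markers had 0 of 17 past 2-fold (1 without SDR or homozygous HHR lactation), although 9 lay above the lactation range, where 36.4% of all genes did. The 9 became 4 after median centring, 4 after scaling to the poly-A controls and 14 after scaling to the hybridisation controls. The lysozyme gene Lyz2 had 10368 in SDR involution, against 10116 (SDR), 5311 (heterozygous HHR) and 7303 (homozygous HHR) in lactation.

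Interferon response genes were above the lactation range in 25 of 33 measured members and below it in 0, with a median log2 gap of 0.54, against 36.4% of all genes above the range. At least 2-fold higher were 8, and 16 without the SDR lactation array. The count was 17 after scaling to the hybridisation controls and 5 after scaling to the poly-A controls. Ifit3 had 483 in SDR involution, against 92 (SDR), 98 (heterozygous HHR) and 112 (homozygous HHR) in lactation and was 4.30-fold higher. Ifi44 had 723 in SDR involution, against 243 (SDR), 215 (heterozygous HHR) and 275 (homozygous HHR) in lactation and was 2.63-fold higher, and Mx2, an antiviral GTPase, was 2.59-fold higher. Oas1a, a sensor of double-stranded RNA, had 617 in SDR involution, against 265 (SDR), 140.2 (heterozygous HHR) and the floor (homozygous HHR) in lactation and was 2.33-fold higher (4.40-fold without the SDR array). Other members did not lie outside the range. Cxcl9, a T cell chemokine, had 538 in SDR involution, against 3051 (SDR), 391 (heterozygous HHR) and 391 (homozygous HHR) in lactation, and the immunoproteasome subunit Psmb8 had 4569 in SDR involution, against 6528 (SDR), 3378 (heterozygous HHR) and 2849.7 (homozygous HHR) in lactation, both inside the lactation range. The RT1 list, the major histocompatibility complex of the rat, had 1 of 13 members higher (3 without the SDR lactation array) and 1 lower. RT1-Bb, a class II gene, was at the floor in SDR involution, against 2731 (SDR), 816 (heterozygous HHR) and 777 (homozygous HHR) in lactation. Its further probe set lay inside the lactation range, with 144 in SDR involution, against the floor (SDR), 385 (heterozygous HHR) and 332 (homozygous HHR). RT1-Ba, its partner, had 3398 in SDR involution, against the floor (SDR), 638 (heterozygous HHR) and 765 (homozygous HHR) in lactation. On all 3 further RT1-Ba probe sets the order of the SDR arrays was the reverse. One of them had the floor in SDR involution, against 9050.5 in SDR lactation. RT1 genes have near-identical relatives and differ between strains, and probe sets of 1 gene disagreed within SDR, so these values are uncertain.

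**Figure D4:**
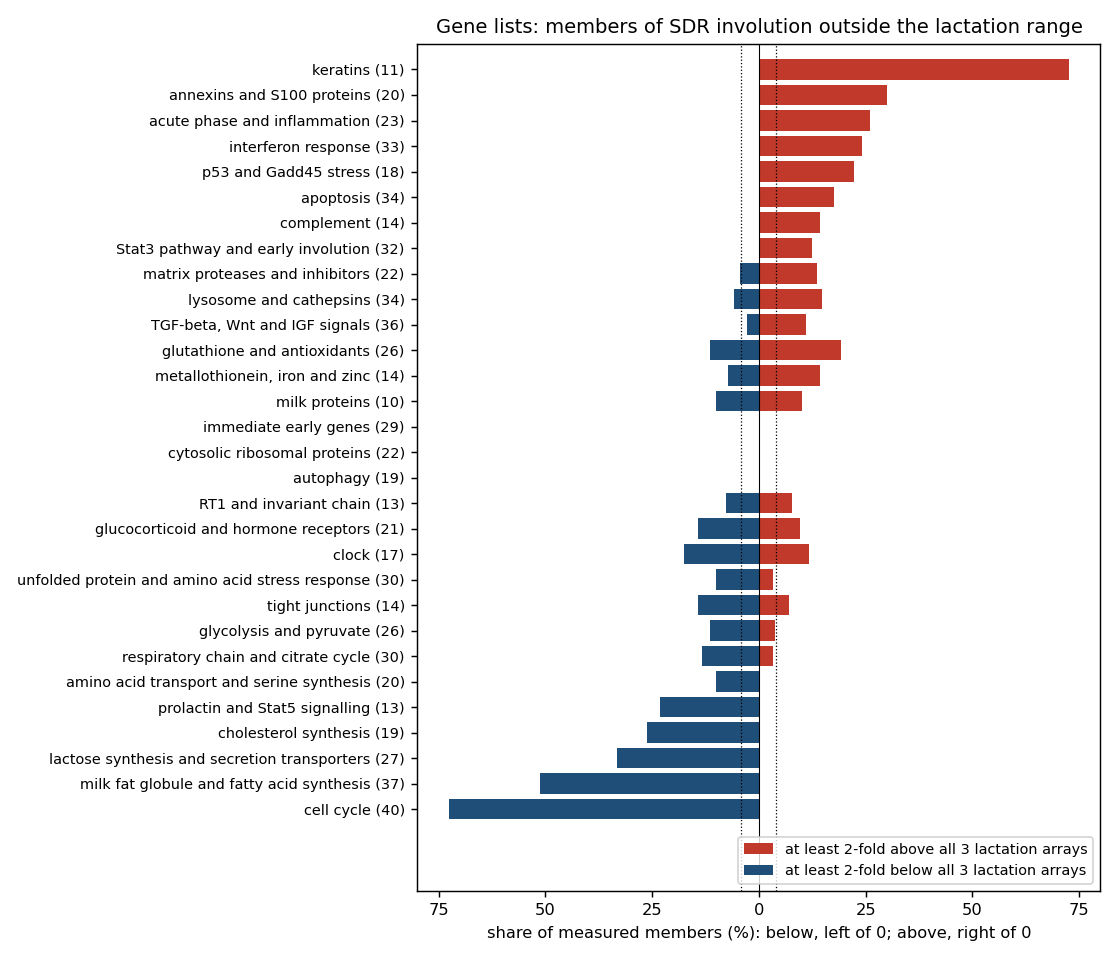
Share of the measured members of 30 gene lists that lay at least 2-fold above (red, right of 0) or below (blue, left of 0) every lactation array, with the number of measured members in brackets and dotted lines at the shares of all genes (3.88% above, 4.19% below). Keratins (8 of 11) reach furthest to the right and cell cycle genes (29 of 40) furthest to the left.

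What the HHR arrays add was seen by setting the gap beside the difference between SDR involution and SDR lactation alone. Of 11014 genes measured in that pair 1129 were at least 2-fold higher and 985 lower in involution. Of these, 39.1% of the higher and 48.5% of the lower genes were also 2-fold outside all 3 lactation arrays. A further 603 higher and 427 lower genes lay outside the range by less than 2-fold, and 84 and 80 lay inside it. The genes inside it with the largest pair differences were, on the higher side, mostly genes at or above the involution signal in homozygous HHR. Cxcl1, a neutrophil chemokine, had 1046 in SDR involution, against the floor (SDR), 145 (heterozygous HHR) and 1188 (homozygous HHR) in lactation. Arid5b, a chromatin-binding protein, had 800.1 in SDR involution, against 176 (SDR), 262 (heterozygous HHR) and 1033 (homozygous HHR) in lactation, and the zinc finger gene Zfp703 had 407 in SDR involution, against the floor (SDR), 188 (heterozygous HHR) and 427 (homozygous HHR) in lactation. Chl1, a neural adhesion molecule, was the exception, with 2303 in SDR involution, against 548 (SDR), 2903 (heterozygous HHR) and 1147 (homozygous HHR) in lactation. On the lower side SDR lactation was the highest array in 7 of 8 genes, and for Gtse1, a gene of cell division, heterozygous HHR was, with the floor in SDR involution, against 317 (SDR), 776 (heterozygous HHR) and the floor (homozygous HHR) in lactation. The immune gene RT1-CE10 was at 374 in SDR involution, against 5398 (SDR), 358 (heterozygous HHR) and 481 (homozygous HHR) in lactation, and the pericyte gene Rgs5 was at 459.7 in SDR involution, against 1623 (SDR), 422 (heterozygous HHR) and 694 (homozygous HHR) in lactation. For these 2 genes, involution and both HHR arrays were close and SDR lactation alone was high.

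**Figure D5:**
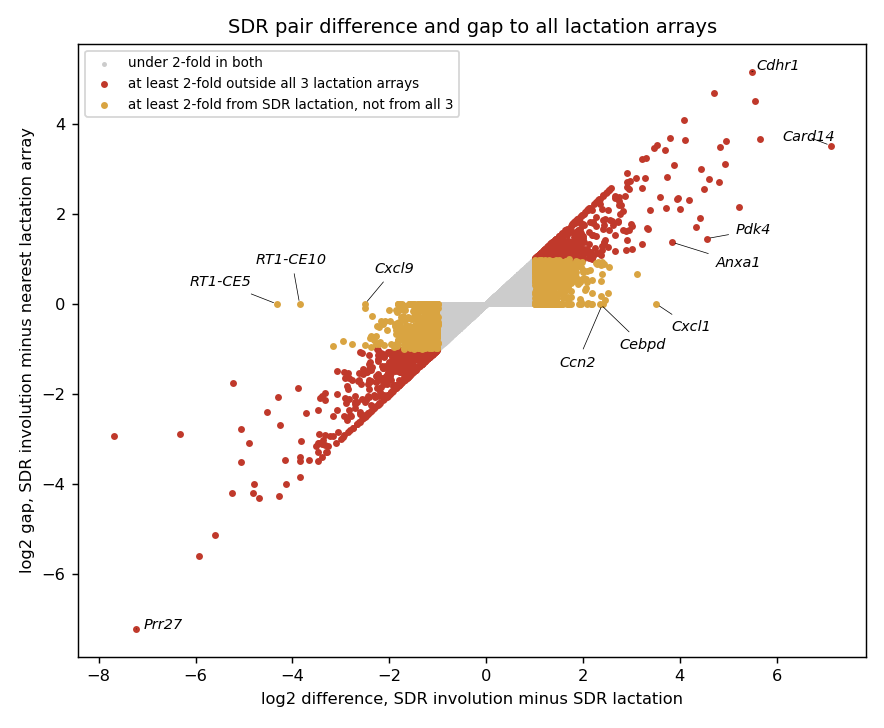
Log2 gap of SDR involution to the nearest of 3 lactation arrays (vertical axis) against its log2 difference from SDR lactation alone (horizontal axis), with 1 point for each of 11395 genes. Red points are at least 2-fold outside all 3 lactation arrays and ochre points differ at least 2-fold from SDR lactation but not from all 3, among them Cxcl1, Cebpd and Ccn2 at a gap of 0 on the right.

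Homozygous HHR was the lactation array nearest to involution for 50.5% of the 442 higher genes and 43.9% of the 478 lower ones, where it was nearest for 35.9% of all measured genes. SDR lactation was nearest for 31.9% and 34.5%, and heterozygous HHR for 17.6% and 21.5%. Over all measured genes their shares were 34.5% (SDR) and 29.6% (heterozygous HHR). Ties were given to the first array in the order SDR, heterozygous HHR and homozygous HHR. The 46 higher genes with every lactation array at the floor were therefore all counted for SDR lactation. Against single lactation arrays, involution was at least 2-fold higher for 853 genes and lower for 844 with homozygous HHR, for 1129 and 985 with SDR, and for 1210 and 1057 with heterozygous HHR. Pdk4, the kinase that shuts off pyruvate dehydrogenase, had 10724 in SDR involution, against 457 (SDR), 529 (heterozygous HHR) and 3914 (homozygous HHR) in lactation. It was 2.74-fold above homozygous HHR and 20.3-fold above the nearer of the other lactation arrays, the largest change of a fold among the named genes on leaving out that array. Of 163 named genes past 2-fold, leaving out homozygous HHR made the fold over 1.5 times larger for 24, SDR for 9 and heterozygous HHR for 1. The arrays differed in other ways as well. The Gapdh 3′ to 5′ ratio was highest in homozygous HHR at 2.30, against 1.60 in SDR involution. In hybridisation control signal homozygous HHR was the lactation array nearest to involution, with 6648 against 5383. The median of the 20 brightest probe sets was also nearest there, with 45767 against 41328. The part of these array differences in the order of nearness was not tested.

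The genes next to the threshold show where it falls. Just past 2-fold below the range were Ugp2, which makes UDP-glucose, and Thy1, a fibroblast surface protein, and just short of it Cebpa, a transcription factor of fat cells, and Atp6ap1, a proton pump subunit, with folds between 1.98 and 2.01. Just past it above the range was Rsad2, the antiviral viperin, with 1219.8 in SDR involution, against 609.7 (SDR), 294 (heterozygous HHR) and 503 (homozygous HHR) in lactation, and just short of it Usp18, another interferon-induced gene, with 539 in SDR involution, against 270.0 (SDR), 98 (heterozygous HHR) and 206 (homozygous HHR) in lactation. Further probe sets of the same gene gave a check within the arrays. Their direction was taken from involution against the median of the lactation arrays, so a probe set inside the lactation range could share it. Of the 442 higher genes 104 had others above the floor, all in the same direction for 84 and all at least 2-fold outside the range for 28. Of the 478 lower genes 144 had others, all in the same direction for 118 and all at least 2-fold outside the range for 48.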

How the data were processed

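Rat mammary gland RNA was hybridised to 4 Affymetrix arrays, 1 per group, and groups were taken from the labels. Total RNA was column-purified and labelled as biotinylated cRNA, per the labels' protocols. The deposited files hold MAS5 signals, linear intensities per probe set made by the authors with software given without a version per the submitters' processing notes. The trimmed mean of 500.2 in every array shows that the authors' intensities were scaled to a common level. The sources used here give no scanner flags or MAS5 settings, and 0 columns were left unmapped.

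Of 31099 probe sets 57 were controls, 20832 had 1 gene symbol in the platform annotation, 436 several and 9774 none, and 20764 were matched by gene ID to RefSeq GRCr8. Intensities under the pooled 40th percentile were raised to it (91.5) and log2 transformed, and the probe set with the highest mean stood for its gene. The gap was the log2 difference to the nearest lactation array, 0 inside their range, and 2-fold was the threshold. With 1 array a group no test was made and no p-value exists; the number of arrays limits the precision. The calculation was tested on simulated data with known gaps.

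The members and gene lists (1086 entries in 44 lists, 957 on the array) were chosen with earlier results of these data known. Eligible for naming were the 15 largest gaps per direction with both sides above the floor, the 5 brightest per direction with one side at it, up to 6 members past 2-fold and 3 others per list, the 8 largest SDR pair differences per direction inside the lactation range, and 5 genes on each side of the threshold, of which a selection is given. Alternatives were the scaling, the floor, a pseudocount, the choice of probe set, the median of lactation, a 3-fold threshold and leaving out each lactation array. Promoter letters were searched in 250 bases upstream of 27457 genes. Python 3.11.15, numpy 2.4.6, pandas 2.3.3 and matplotlib 3.10.9 were used.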

Additional observations from a re-analysis of the deposited data

How the results depend on the processing

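With 442 genes at least 2-fold higher and 478 lower as the starting point, counts stayed within 1.5 times under median centring (315 and 578), quantile normalization (425 and 505), a floor at the 25th (526 and 572) or 55th percentile (353 and 393), averaging a gene's probe sets (355 and 407), probe sets not marked as shared between genes (422 and 463) and poly-A control scaling (334 and 534). Adding the floor as a pseudocount gave 292 higher and 400 lower, and the median of the lactation arrays in place of the nearest gave 953 and 809, since it asks less of each gene. Scaling to the hybridisation controls, like the poly-A scaling chosen after seeing the data, gave 1154 and 260. At 3-fold the counts were 132 and 198. Leaving out one lactation array gave between 552 and 707 higher and between 566 and 600 lower genes, the most without homozygous HHR. Of 163 named genes past 2-fold, between 134 and 163 stayed past it across the alternatives. All 163 stayed with the lactation median or with a lactation array left out. Those settings can only keep or widen a gap, so that outcome was fixed in advance. Among genes described here, those short of 2-fold with the pseudocount were Adamts4, Mmp12, Trib3, Oas1a, Sfrp4, Sfrp2, Per1, Bmal1, Krt1, Krt10, Krtdap, Loricrin, Cdh1, Thy1, Fn1, Rsad2 and Ugp2. With averaged probe sets they were B4galt1, Cp, Bcl2l11, Sesn2, Trib3, Lgmn, Sec61a1, Mx2, Sfrp4, Sfrp2, Anxa2, Cry2, Idh1, Cs, Mdh1, RT1-Ba, Cdh1, Thy1, Jchain and Krtdap, and with the brightest unshared probe set Trib3 and Mdh1. After scaling to the hybridisation controls they were Acat2, Fdps, Prlr, Ctsh, Sfrp2, Per1, Cgn, Bmal1, Pdhb, Mdh1, Thy1 and Ugp2, and after median centring or poly-A scaling Adamts4, Mmp12, Krt14, Krt10, Krtdap, Cdh1, Fn1, Jchain, Rsad2, Bcl2l11, Oas1a, Sfrp2, Thy1 and Ugp2 under at least one of them. Quantile normalization took Krtdap, Krt10, Rsad2 and Ugp2 under 2-fold, and the 55th percentile floor Atp2b2, Il1rn, Sfrp4, Sfrp2, Per1, Krt1 and Loricrin. No paired analysis was possible because each group has 1 array. The main limits are the absence of replicates, so that animal and array cannot be separated from stage, the floor, under which no order is known, and the upper end of the signal range, where the 4 arrays differ in their brightest values.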

Other observations

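Energy metabolism and the molecular clock, not described above, showed members on both sides. The list of the respiratory chain and citrate cycle also held cytosolic enzymes, among them Mdh1 and Idh1. Of its 30 measured genes 4 were at least 2-fold below the lactation range and 1, Idh1, that far above it. By any amount 23 lay below it, with a median log2 gap of -0.50 that shrank to -0.11 after scaling to the hybridisation controls. Mdh1, cytosolic malate dehydrogenase, had 4286 in SDR involution, against 11668 (SDR), 12044 (heterozygous HHR) and 9685 (homozygous HHR) in lactation and was 2.26-fold lower, and Cs, citrate synthase, was 2.61-fold lower with 2 of its 3 further probe sets on the same side. Idh1, the NADPH-making cytosolic isocitrate dehydrogenase, was the higher member, with 10551 in SDR involution, against 2198 (SDR), 1599 (heterozygous HHR) and 3691 (homozygous HHR) in lactation (2.86-fold, or 4.80-fold without homozygous HHR). Pc, pyruvate carboxylase, was 3.20-fold lower and Pdhb, a subunit of pyruvate dehydrogenase, 2.29-fold lower, while Ldha, lactate dehydrogenase, was on the other side with 15974 in SDR involution, against 8815 (SDR), 7802 (heterozygous HHR) and 6959 (homozygous HHR) in lactation, short of 2-fold. Ribosomal protein genes had 0 of 22 members past 2-fold and 17 below the range with a median log2 gap of -0.12, a direction that turned to 14 above it and a median of 0.03 after scaling to the hybridisation controls.

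Clock genes had 2 of 17 members higher (4 without SDR lactation) and 3 lower (5 without heterozygous HHR). Cry1, a repressor of the clock, had 216 in SDR involution, against 1274 (SDR), 1475 (heterozygous HHR) and 929 (homozygous HHR) in lactation and was 4.29-fold lower, and its relative Cry2 was 2.51-fold higher with 691 in SDR involution, against 251 (SDR), 275 (heterozygous HHR) and 218 (homozygous HHR) in lactation. Bmal1 was 2.17-fold lower and Per1 2.09-fold lower (4.33-fold without SDR lactation), while Bhlhe41, another repressor, was 3.14-fold higher (5.81-fold without homozygous HHR) with 3354 in SDR involution, against 577 (SDR), 362 (heterozygous HHR) and 1068 (homozygous HHR) in lactation. The hour at which each gland was taken is not given in the labels. Of 26 glutathione and redox genes 5 were higher and 3 lower. Sod2, the mitochondrial superoxide dismutase, had 8746 in SDR involution, against 1823 (SDR), 1704 (heterozygous HHR) and 2296 (homozygous HHR) in lactation and was 3.81-fold higher, Gpx2, a glutathione peroxidase of epithelia, was 8.55-fold higher (at least 14.8-fold without homozygous HHR), and Nqo1, a quinone reductase, 2.73-fold higher. Ggt1, which breaks down extracellular glutathione, had 693 in SDR involution, against 5327 (SDR), 5210.1 (heterozygous HHR) and 5731 (homozygous HHR) in lactation and was 7.51-fold lower, and Gsta1, whose probe sets may be shared with close relatives, was 7.21-fold lower.

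Markers of B and plasma cells had 2 of 6 members higher, Blnk (3.38-fold) and Jchain (2.15-fold), while Mzb1 lay inside the lactation range with 147 in SDR involution, against the floor (SDR), 155 (heterozygous HHR) and 139.8 (homozygous HHR) in lactation. Of 3 red cell markers 2 lay below all lactation arrays. Hbb, whose probe sets may be shared with other globin genes, had 3425 in SDR involution, against 14503 (SDR), 4461 (heterozygous HHR) and 6945 (homozygous HHR) in lactation, and Slc4a1 was at the floor in SDR involution and in SDR lactation. The measured probe sets that were not tied to a single gene symbol numbered 5736. Of these, 251 (4.38%) were at least 2-fold above and 152 (2.65%) at least 2-fold below all lactation arrays.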
